A study of Mus musculus with 12 samples.

Results

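The nuclear genes for the subunits of the mitochondrial respiratory chain were followed in CD8+ T cells sorted from mouse tumours. The genes were chosen by symbol: names starting with Nduf followed by a, b, c, s or v, the 4 Sdh genes, and names starting with Uqcr, with Cox and a digit between 4 and 8, or with Atp5. Cox6a2 and names ending in -ps were left out. This gave 107 of the 56980 rows of the count table. They comprised 41 rows for complex I, 4 for complex II, 8 for complex III, 20 for complex IV, 18 for complex V, 8 for complex I assembly factors (Ndufaf genes) and 8 with a numbered pseudogene name. After the filter on low counts 97 of the 107 were tested, among 20411 genes.

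Cells were asGM1-positive or asGM1-negative by surface staining for asialo-GM1, a glycosphingolipid, and were alive (DAPI-), CD45.2+ and CD8+. They came from Flt3L Panc02 tumours, in which the cancer cells express the dendritic cell growth factor Flt3L, or from Panc02 tumours, grown from a mouse pancreatic cancer cell line. All hosts were wild type C57BL/6J, and no age is given. The 4 groups, namely asGM1-positive and asGM1-negative cells of Flt3L Panc02 tumours and asGM1-positive and asGM1-negative cells of Panc02 tumours, held 3 bulk RNA-seq libraries each. The labels do not say whether replicates came from separate mice, whether tumours were pooled, or whether the Flt3L line is a single clone. The p-values therefore measure only the spread between these libraries.

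The respiratory chain passes electrons from NADH (complex I) and succinate (complex II) through coenzyme Q, complex III and cytochrome c to oxygen at complex IV, and complex V, the ATP synthase, uses the proton gradient that this builds to make ATP. Most subunits are encoded in the nucleus and imported, while a few core subunits come from the mitochondrial genome. Activated T cells raise both glycolysis and respiration, and T cells that persist in tumours are known for impaired mitochondria.

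Library totals were 98663008 to 102896605 counts, and CD8 and CD3 genes were abundant in all 12 libraries (Cd8a 1569 to 2562 CPM, the usual depth-normalised count, here on TMM-scaled library sizes). Transcripts of plasmacytoid dendritic cells were present in the asGM1-negative libraries: Siglech had 253 to 289.9 CPM in asGM1-negative cells of Flt3L Panc02 tumours and 40.4 to 70.1 CPM in asGM1-negative cells of Panc02 tumours, and lay between 0.0901 and 4.56 CPM in the 6 asGM1-positive libraries. For the respiratory chain genes, 2 libraries stood apart. Replicate 3 of the asGM1-positive cells from Flt3L Panc02 tumours was the highest of the 12 and replicate 2 of the asGM1-negative cells from those tumours the lowest. Medians or counts over the whole chain are therefore also given without them. Values by complex, by transcript length, of overlap between groups and of other gene lists are given with all libraries only.

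The chain was expressed in every library. Per kilobase of transcript, and averaged over the 12 libraries, the most abundant transcripts were Atp5b, the catalytic beta subunit of complex V, at 1042 CPM per kb, Cox4i1, a nuclear subunit of complex IV, at 759 CPM per kb, and Cox6a1 and Cox8a, small subunits of complex IV, at 581 and 535 CPM per kb. In complex I the level ran from 373 CPM per kb for the accessory subunit Ndufb7 to 42.9 for Ndufs1, the largest core subunit, and 21.6 for Ndufb2. In complex II, Sdhb, the iron-sulphur subunit, had 354 CPM per kb, Sdhd, a membrane anchor, 191, Sdha, the flavoprotein, 154, and Sdhc, the other membrane anchor, 22.7. Uqcrc1, a core protein of complex III, had 393 CPM per kb, against 108 for its partner Uqcrc2. Transcript lengths came from another annotation than the one used for counting, so these levels are approximate.

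Tissue-restricted isoforms were low. Cox7a1, the muscle form, had 2.05 CPM per kb, against 171 for its common counterpart Cox7a2. Cox6b2, a testis form, had 1.45 CPM per kb, against 408 for Cox6b1. Cox4i2, a form induced by low oxygen, and Ndufa4l2, a hypoxia gene, had 0.131 and 0.0651 CPM per kb. Cox7b2, Cox8b, Cox8c, Ndufb11b and a second Atp5o entry had no counts in any library. Atp5k, Atp5l, Uqcrh and Cox7c have listed pseudogene copies, and Ndufs6b, Ndufb4c and Cox6c2 are near copies of abundant subunits, so how reads were split among these is uncertain.

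Within Flt3L Panc02 tumours, asGM1-positive cells held more respiratory chain transcripts than asGM1-negative cells for most subunits of all 5 complexes, yet few genes passed the test singly. The median fold over the 97 tested genes was 1.32, a median log2 fold change of 0.40, while it was -0.01 over all 20411 genes and 0.13 over the 7043 genes with at least 20 CPM. The log2 fold change was positive for 91 of the 97, where it was positive for 48.9% of all genes and 67.6% of genes with at least 20 CPM. Summed over all of the genes, the 3 asGM1-positive libraries had 16875, 16488 and 21930.4 CPM and the 3 asGM1-negative libraries 15937, 12494 and 14115 CPM. On this scale the groups did not overlap, with replicate 1 of the asGM1-negative cells close below the lower asGM1-positive libraries. The TMM factors that divide these CPM differed by gate: 0.949, 0.953 and 0.877 in asGM1-positive and 1.037, 1.096 and 1.063 in asGM1-negative replicates 1 to 3. This scaling widens the gap between the gates. With the factors multiplied back, asGM1-negative replicate 1 lies above asGM1-positive replicates 1 and 2, so the sums overlap without the scaling. Overlap of single genes and complexes is judged on the TMM scale, and for some genes, Cox4i1 among them, the lack of overlap also rests on it.

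By edgeR's quasi-likelihood test, with p-values adjusted over all genes by the Benjamini-Hochberg method, 5 of the 97 rose in asGM1-positive cells and 0 fell, where 2.77% of all genes rose and 5.83% fell. Among genes with at least 20 CPM, 6.09% rose, so the share of the chain that was called was no higher than that of genes at such levels. At an unadjusted p under 0.05, 51 were higher and 0 lower. By the same measure 2198 of all 20411 genes and 1539 of the 7043 genes with at least 20 CPM were higher. DESeq2 called 25 higher and 0 lower at an adjusted p under 0.05, where it called 6.41% of all genes higher. In 39 of the 97 all 3 asGM1-positive libraries lay above all 3 asGM1-negative ones, where 11.4% of all genes and 20% of genes with at least 20 CPM did so. None lay wholly below. The shares of all genes given here are also those to set beside the counts by complex that follow. Without asGM1-positive replicate 3 the median log2 fold change was 0.21 and 1 gene was called, and without asGM1-negative replicate 2 they were 0.29 and 1. Without asGM1-positive replicate 2, 1 gene was called, without asGM1-negative replicate 3, 2 genes, and without asGM1-negative replicate 1, 13 genes. The number higher at an unadjusted p under 0.05 was 13 without asGM1-positive replicate 3, 13 without asGM1-negative replicate 2 and 78 without asGM1-negative replicate 1. In bulk libraries a change in the mix of cells and a change in RNA per cell cannot be told apart.

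**Figure D1:**
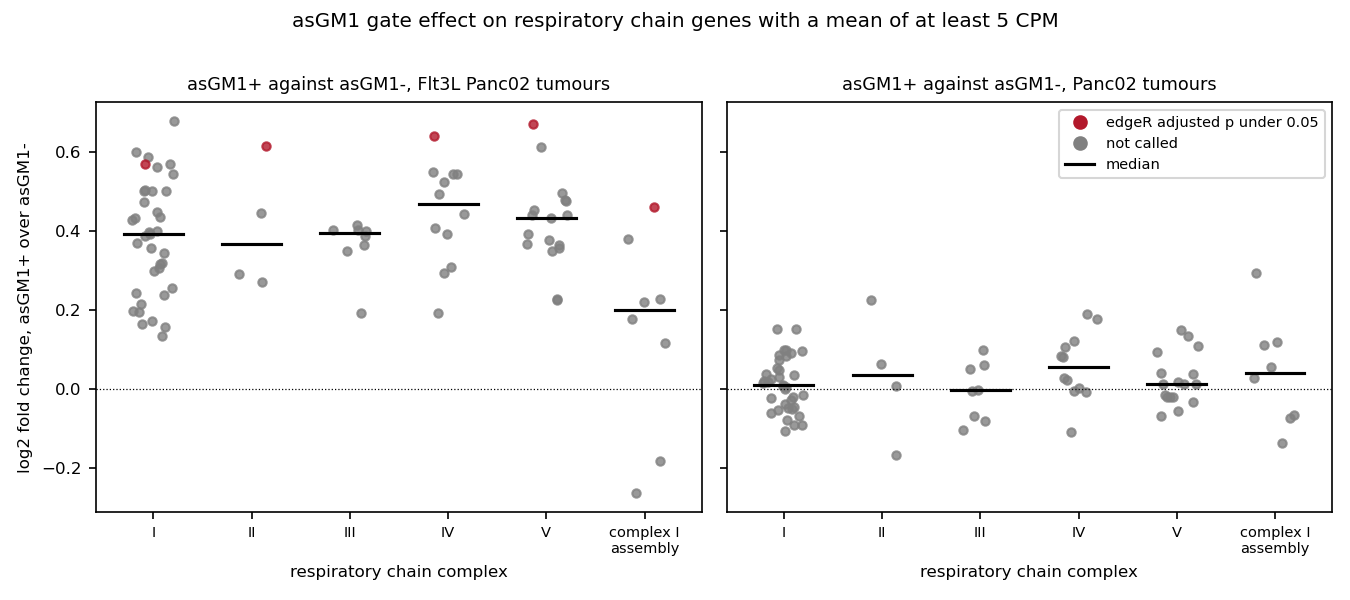
Log2 fold change of asGM1-positive over asGM1-negative cells for each respiratory chain gene with a mean of at least 5 CPM (points, red where edgeR's adjusted p was under 0.05), by complex, in Flt3L Panc02 tumours (left) and Panc02 tumours (right), with black lines at the medians of the plotted genes. In Flt3L Panc02 tumours the points of complexes I to V all lie above 0, and in Panc02 tumours they scatter about 0.

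In complex I, 1 of 39 tested genes rose and 0 fell, and all 39 log2 fold changes were positive, with a median of 0.40. The accessory subunit Ndufb7, which faces the intermembrane space, had 259, 250.2 and 364 CPM in asGM1-positive and 208, 157 and 181 CPM in asGM1-negative cells of Flt3L Panc02 tumours, and Ndufa13, an accessory subunit also known as Grim19, 243, 249.7 and 386 against 221, 162 and 196 CPM. Neither overlapped between the gates, and in both the third asGM1-positive library was far above the other two. Their log2 fold changes were 0.68 ± 0.19 and 0.60 ± 0.20 (SE), just outside the threshold for Ndufb7 (edgeR adjusted p = 0.0512) and beyond it for Ndufa13 (0.0917). The 7 core subunits had a median log2 fold change of 0.24, and the other 32 tested subunits of complex I 0.41. Ndufs1 differed from the rest by library: it had 123, 116 and 96.5 CPM in asGM1-positive and 89.4, 102 and 106 CPM in asGM1-negative cells, and asGM1-positive replicate 3 was its lowest in that gate.

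In complex II, which also belongs to the citric acid cycle, 1 of 4 genes rose. Sdhc had 79.7, 86.0 and 106 CPM in asGM1-positive and 44.8, 64.9 and 67.6 CPM in asGM1-negative cells, a log2 fold change of 0.61 ± 0.16 (edgeR adjusted p = 0.0377). Its groups did not overlap, and asGM1-negative replicate 1 was the low library here. The call was lost in 6 of 13 other settings, among them the fits without asGM1-positive replicate 2 or 3 or asGM1-negative replicate 1 or 2. Sdhb had 435, 408 and 587 against 399, 309.7 and 342 CPM, a log2 fold change of 0.44 ± 0.14 (edgeR adjusted p = 0.0817). Sdha had 488, 519 and 477 against 355, 433 and 443 CPM, and asGM1-positive replicate 3 was not its highest. The summed complex was 1244, 1248 and 1453 CPM in asGM1-positive and 1040.0, 989.6 and 1051 CPM in asGM1-negative cells, without overlap.

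In complex III none of 8 genes was called by edgeR's quasi-likelihood test. At an unadjusted p under 0.05, 3 were higher, where 1539 of the 7043 genes with at least 20 CPM were. DESeq2 called 1, Uqcrfs1, the Rieske iron-sulphur protein, where it called 6.41% of all genes higher. All 8 log2 fold changes were positive, with a median of 0.39. Uqcrc1 had 698, 619.9 and 929.9 CPM in asGM1-positive and 589, 561 and 614 CPM in asGM1-negative cells, so that the gates were separated only narrowly. Among the small subunits, Uqcr10 had a log2 fold change of 0.42 ± 0.16 and Uqcrh, the hinge protein that helps bind cytochrome c, of 0.40 ± 0.19 (edgeR adjusted p = 0.134 and 0.206). Summed over complex III, the lowest asGM1-positive library (1603 CPM) fell below the highest asGM1-negative library (1614 CPM), so this complex overlapped between the gates.

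In complex IV, 1 of 17 tested genes rose and the median log2 fold change was 0.44. Cox5a, a subunit on the matrix side, had 199, 202 and 251 CPM in asGM1-positive and 166, 111 and 142 CPM in asGM1-negative cells. The gates were clearly apart, and the log2 fold change was 0.64 ± 0.16 (edgeR adjusted p = 0.0296). The call was lost in 5 of 13 other settings, among them the fits without asGM1-positive replicate 2 or 3 or asGM1-negative replicate 2 or 3. Cox6a1, the common form of a subunit that has a separate muscle form, had 369, 359 and 509.9 CPM against 327, 250.4 and 269.7 CPM, a log2 fold change of 0.55 ± 0.18 (edgeR adjusted p = 0.0881). Cox4i1, the most abundant transcript of the complex per length, had 600.4, 616 and 925 against 554, 429.6 and 508 CPM, with no overlap. The 3 tested genes of this complex with negative values were of low level: Cox4i2 and Ndufa4l2 had at most 0.317 and 0.157 CPM in any library, and Cox6b2 had 0.460 to 1.08 CPM.

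In complex V, 1 of 17 tested genes rose, 13 were higher at an unadjusted p under 0.05, and in 10 all asGM1-positive libraries lay above all asGM1-negative ones. Of the 7043 genes with at least 20 CPM, 1539 were higher at such a p and 20% lay wholly above. The genes of the complex share the same high and low libraries. Atp5k, subunit e of the membrane part, had 33.7, 34.8 and 49.2 CPM in asGM1-positive and 26.2, 22.5 and 25.3 CPM in asGM1-negative cells. The gates did not overlap, and the third asGM1-positive library was well above the others. The log2 fold change was 0.67 ± 0.18 (edgeR adjusted p = 0.0417), and the call was lost in 7 of 13 other settings, among them the fits without asGM1-positive replicate 2 or 3 or without any of the asGM1-negative libraries in turn. Atp5o, the stalk subunit that links the catalytic to the membrane part, had 256, 254 and 396 against 235, 164 and 195 CPM, a log2 fold change of 0.61 ± 0.18 (edgeR adjusted p = 0.0566). The catalytic subunits differed less: Atp5b had 2156, 1989 and 2198 against 2030.0, 1659 and 1744 CPM and overlapped, while Atp5a1, the alpha subunit, had 1134, 1097 and 1068 against 963, 887 and 967 CPM and did not.

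Of the 8 complex I assembly factors, 1 rose and 0 fell, with a median log2 fold change of 0.20. Ndufaf7, a methyltransferase that acts early in complex I assembly, had 55.8, 55.6 and 67.1 CPM in asGM1-positive and 49.7, 37.4 and 42.7 CPM in asGM1-negative cells. The gates did not overlap, and the log2 fold change was 0.46 ± 0.12 (edgeR adjusted p = 0.0410). The call was lost in 8 of 13 other settings, among them the fits without any asGM1-positive library in turn or without asGM1-negative replicate 2 or 3. Ndufaf3 had a log2 fold change of 0.38 ± 0.19 (edgeR adjusted p = 0.232), and Ndufaf4 had 13.6, 11.9 and 13.4 against 19.7, 14.1 and 13.0 CPM. Of the pseudogene names, 4 of 8 were tested and none was called by edgeR, with 2 at an unadjusted p under 0.05 and 1, Atp5k-ps2, called by DESeq2.

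**Figure D2:**
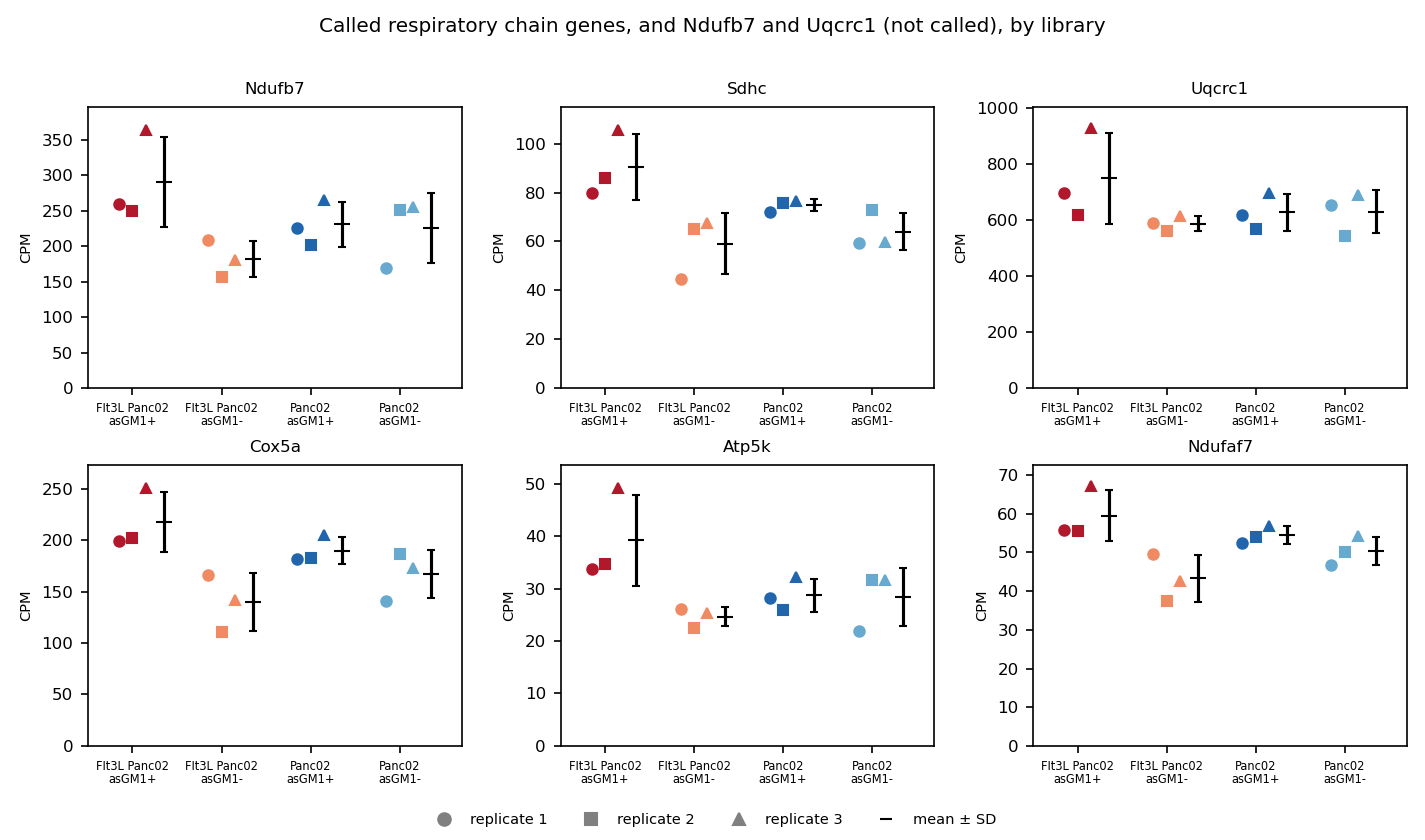
CPM in each library (points, shape by replicate number) with mean ± SD of 3 libraries for Sdhc, Cox5a, Atp5k and Ndufaf7, called between the gates in Flt3L Panc02 tumours, and for Ndufb7 and Uqcrc1, which were not called. The called genes shown do not overlap between asGM1-positive and asGM1-negative cells of Flt3L Panc02 tumours and overlap in Panc02 tumours.

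Promoters are shown for called genes, since the respiratory chain is known to be controlled through shared promoter elements for NRF1, the ETS factor GABPA, YY1 and ESRRA. RefSeq promoter sequences (build GRCm38.p6, not the mm39 build of the counts) matched 77 of the 98 symbols without a pseudogene name, and among the called genes Cox5a, Atp5k and Ndufaf7, but not Sdhc. The last 120 bases before the annotated start are printed for Cox5a (chr9:57521112-57521231, plus strand), Atp5k (chr5:108434400-108434519, minus strand) and Ndufaf7 (chr17:78937015-78937134, plus strand). Capitals mark the overlapping matches on both strands to the NRF1 core searched, GCGCATGC, whose other strand reads GCATGCGC.
Cox5a: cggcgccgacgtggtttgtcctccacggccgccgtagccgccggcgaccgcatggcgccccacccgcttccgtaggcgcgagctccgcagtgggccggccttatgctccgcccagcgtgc
Atp5k: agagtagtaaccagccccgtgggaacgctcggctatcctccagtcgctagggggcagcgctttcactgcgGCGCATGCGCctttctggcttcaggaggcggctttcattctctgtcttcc
Ndufaf7: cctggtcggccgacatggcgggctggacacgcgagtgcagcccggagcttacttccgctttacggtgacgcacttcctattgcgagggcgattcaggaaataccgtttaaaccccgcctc

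In Atp5k the match starts 50 bases before the gene start. Over windows from 250 bases before to 50 bases after the start, the NRF1 core was present in 12 of the 77 promoters (15.6%), against 3.05% of 27025 promoters. The ETS core CCGGAAG was present in 19 (24.7%, against 9.93%) and the YY1 core AAGATGGC in 11 (14.3%, against 3.19%). The ESRRA core TCAAGGTCA was present in 2 (2.60%, against 0.466%), and the E-box CACGTG in 6 (7.79%, against 8.09%). Both strands were searched, and a match is a run of letters, not a bound site. The 27025 promoters were not limited to genes tested here, and no set of genes of similar level was searched. In the printed stretches of Cox5a and Ndufaf7 none of these motifs was found.

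The transcripts of the regulators themselves were mixed. Nrf1, the transcription factor for the motif above, had 120.4, 122 and 113 CPM in asGM1-positive and 82.4, 99.6 and 96.5 CPM in asGM1-negative cells of Flt3L Panc02 tumours. It rose by a log2 fold change of 0.35 ± 0.09 (edgeR adjusted p = 0.0371), and asGM1-positive replicate 3 was its lowest asGM1-positive library. The others of the panel were not called there: Gabpa had a log2 fold change of 0.14 ± 0.15, Esrra, an orphan receptor that drives respiratory genes, 0.27 ± 0.25, Tfam, which packages mitochondrial DNA, -0.10 ± 0.10, and the coactivator Ppargc1b -0.47 ± 0.29. Ppargc1a, its better known relative, had no count in 10 of 12 libraries and at most 0.0481 CPM. Over the 19 tested regulators, 1 rose, 0 fell and the median log2 fold change was -0.14.

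**Figure D3:**
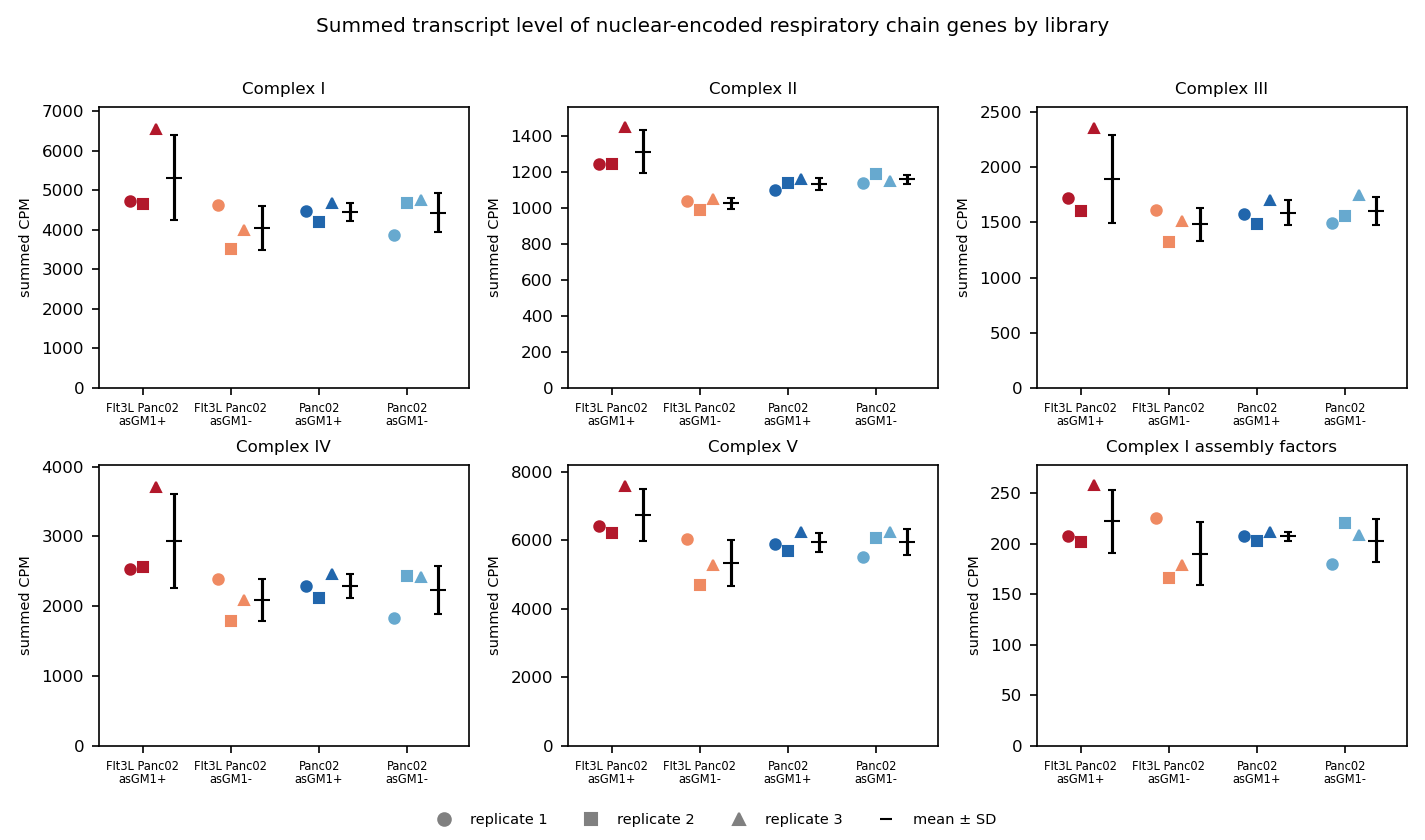
Summed CPM of the genes of each complex in each library (points, shape by replicate number) with mean ± SD of 3 libraries. Replicate 3 of the asGM1-positive cells from Flt3L Panc02 tumours is the highest library in all 6 panels, and replicate 2 of the asGM1-negative cells from those tumours is the lowest in all 6.

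Libraries moved as a block across the chain. For 86 genes with at least 5 CPM, the level of each gene was set against its own mean over the 12 libraries on the log2 scale. In asGM1-positive cells of Flt3L Panc02 tumours the median gene stood at 0.07, 0.05 and 0.54 in replicates 1, 2 and 3, and in asGM1-negative cells at 0.04, -0.38 and -0.15. In asGM1-positive cells of Panc02 tumours it stood at -0.01, -0.09 and 0.07, and in asGM1-negative cells at -0.25, 0.07 and 0.06. In the highest library 84 of the 86 genes were above their own mean, and in the lowest 1 was. The median over 10342 genes of the same minimum level stayed between -0.03 and 0.03 in every library. TMM scaling itself keeps such a median near 0, and many chain genes lie well above that minimum level, so it is not a matched comparison. The same libraries were the extremes of the summed cytosolic ribosomal proteins within Flt3L Panc02 tumours (51050.3 CPM in asGM1-positive replicate 3 and 25762 CPM in asGM1-negative replicate 2) and of the 13 protein genes of the mitochondrial genome (8598 and 4389.6 CPM). What these libraries share was not tested.

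**Figure D4:**
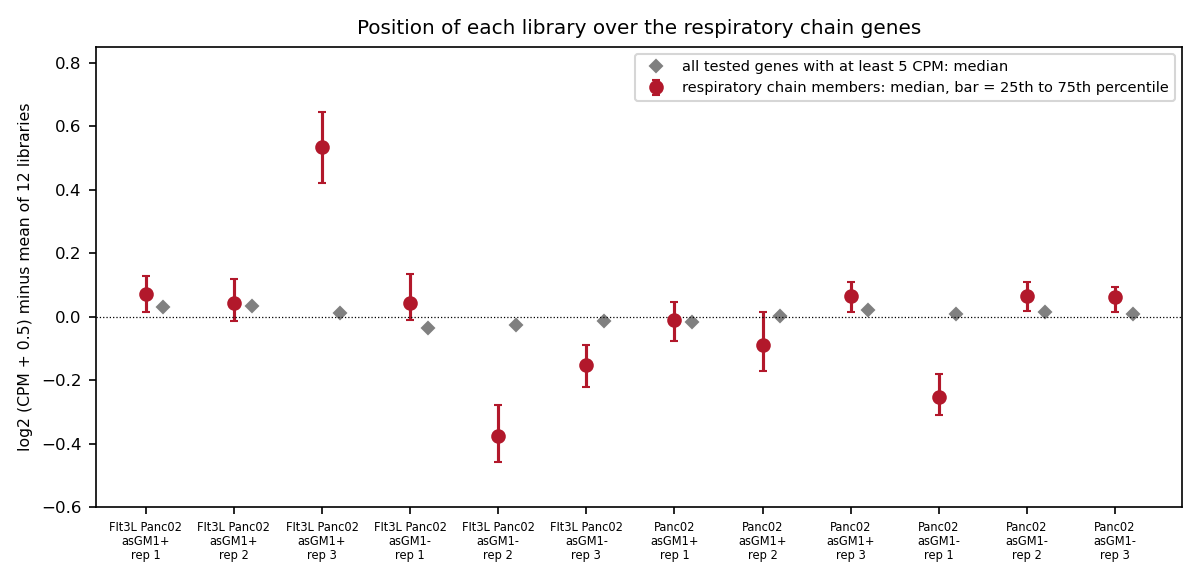
Median over 86 respiratory chain genes of log2 (CPM + 0.5) minus that gene's mean over the 12 libraries (red points, bars from the 25th to the 75th percentile of genes), with the median over all tested genes of at least 5 CPM (grey diamonds), for each library. The asGM1-positive replicate 3 of Flt3L Panc02 tumours stands at 0.54, asGM1-negative replicate 2 of those tumours at -0.38 and asGM1-negative replicate 1 of Panc02 tumours at -0.25.

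Within Panc02 tumours the chain did not separate the gates. None of the 97 genes was called by edgeR's quasi-likelihood test, where 0.892% of all genes were called in either direction, none had an unadjusted p under 0.05, and DESeq2 called 0. Of the 97 log2 fold changes 58 were positive, where 53.3% were over all genes. The median log2 fold change of asGM1-positive over asGM1-negative cells was 0.02, the same as over all genes to 2 decimals. With 1 library left out it lay between -0.08 (without asGM1-negative replicate 1) and 0.07 (without asGM1-negative replicate 2), and it was -0.03 without asGM1-positive replicate 3. In 6 genes all asGM1-positive libraries lay above all asGM1-negative ones, where 8.67% of all genes did so. The summed chain was 15533, 14854 and 16460.5 CPM in asGM1-positive and 14051, 16178 and 16534 CPM in asGM1-negative cells, with full overlap. Of 12 plasmacytoid dendritic cell markers 8 fell here as well, with sums of 756 to 903 CPM in asGM1-positive and 1023 to 1130 CPM in asGM1-negative cells. Sdha was the only gene wholly lower, at 402, 417 and 434 CPM in asGM1-positive and 518, 449 and 439.8 CPM in asGM1-negative cells, a log2 fold change of -0.17 ± 0.11 (edgeR adjusted p = 0.674). Among the genes called in the other tumours, the log2 fold change here was 0.22 ± 0.16 for Sdhc and 0.19 ± 0.16 for Cox5a (edgeR adjusted p = 0.748 and 0.809). Log2 fold changes of the tested complex V genes, Atp5k among them, lay between -0.07 and 0.15. Those of the assembly factors, Ndufaf7 among them, lay between -0.14 and 0.29.

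Whether the gate difference itself differed between tumours was tested as an interaction. None of the 97 genes passed (edgeR's quasi-likelihood test, adjusted p under 0.05), where 0.367% of all genes did; 11 were higher and 2 lower at an unadjusted p under 0.05, and DESeq2 called 0. With 1 library left out the number higher lay between 2 and 43. It was 43 when replicate 1 of the asGM1-negative Flt3L Panc02 libraries was left out, and 2 when replicate 2 of those, or replicate 3 of the asGM1-negative Panc02 libraries, was left out. The interaction was positive for 92 of 97, with a median of 0.35 on the log2 scale. The median was -0.02 over all genes and 0.15 over the 7043 genes with at least 20 CPM, of which 69.8% were positive. Of those 7043 genes 800 were higher at an unadjusted p under 0.05, a share close to that of 11 in 97. The interaction was 0.44 ± 0.15 for Sdha (edgeR adjusted p = 0.214), and 0.68 ± 0.26 for the accessory subunit Ndufs6, 0.65 ± 0.29 for Ndufa13 and 0.65 ± 0.25 for Atp5k (0.268, 0.318 and 0.266). The median over the chain was 0.22 without asGM1-positive replicate 3 of Flt3L Panc02 tumours. No respiratory chain gene was shown to respond differently to the gate in the 2 tumour types.

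Between tumours, asGM1-positive cells of Flt3L Panc02 tumours stood above those of Panc02 tumours for most of the chain, without a call. None of the 97 genes passed by edgeR's quasi-likelihood test, where 6.25% of all genes were called in either direction. At an unadjusted p under 0.05, 17 were higher and 2 lower. Of all 20411 genes 2026, and of the 7043 genes with at least 20 CPM 1255, were higher by that measure. The chain's share was thus no higher than that of genes at such levels. DESeq2 called 3 higher and 1 lower, where it called 5.79% of all genes higher. The median log2 fold change of the chain was 0.25, against -0.03 over all genes and 0.07 over genes of at least 20 CPM. Of the 97 genes 89 were positive, where 46.9% of all genes and 61.2% of genes with at least 20 CPM were. In 35 genes all Flt3L Panc02 libraries lay above all Panc02 libraries, where 14.2% of all genes and 24.1% of genes with at least 20 CPM did so. Without replicate 3 of the Flt3L Panc02 libraries the median was 0.10 and 71 of 98 tested genes were positive. The number higher at an unadjusted p under 0.05 was 2 without that library, 2 without replicate 2 and 9 without replicate 1 of the Panc02 libraries, and 27 without replicate 2 of the Flt3L Panc02 libraries. Without replicate 1 of those libraries 1 gene, Cox7a2l, was called.

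The accessory subunit Ndufa3 had 76.9, 83.4 and 125 CPM in asGM1-positive cells of Flt3L Panc02 tumours and 64.5, 55.1 and 69.3 CPM in those of Panc02 tumours, a log2 fold change of 0.60 ± 0.19 (edgeR adjusted p = 0.0815). Cox8a, a small subunit of complex IV, had 322, 334 and 496 against 263, 238 and 298 CPM, a log2 fold change of 0.53 ± 0.19 (edgeR adjusted p = 0.114). Neither gene overlapped, and replicate 3 of the Flt3L Panc02 libraries carried much of each gap. Cox7a2l, which joins complexes III and IV in supercomplexes, had 105, 125 and 179.5 against 100.1, 96.4 and 96.6 CPM, a log2 fold change of 0.48 ± 0.17, and Atp5e, the epsilon subunit, and Uqcrh had 0.52 ± 0.19 and 0.50 ± 0.19 (edgeR adjusted p = 0.115, 0.112 and 0.133). The genes lower at an unadjusted p under 0.05 were Ndufaf4 and Cox4i2. Ndufaf4 had 13.6, 11.9 and 13.4 CPM in Flt3L Panc02 and 17.8, 17.5 and 15.4 CPM in Panc02 tumours. Cox4i2 had no count in the Flt3L Panc02 libraries and 0.284, 0.317 and 0.190 CPM in the Panc02 libraries, where the floor of 3 fragments is 0.0803 CPM.

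Markers of other cells and of T cells moved in the same comparison. Of 12 T cell identity genes 5 rose and 0 fell in asGM1-positive cells of Flt3L Panc02 over Panc02 tumours, with a median log2 fold change of 0.52 and sums of 13659.7 to 17452 CPM in Flt3L Panc02 and 10015 to 11986 CPM in Panc02 tumours. Of 14 macrophage and monocyte markers 4 fell and 0 rose, with a median of -1.24 and sums of 708 to 960.3 against 914 to 3322 CPM. Of 10 tested tumour epithelial and fibroblast markers 4 fell and 1 rose, with sums over the list of 97.4 to 138 against 169.9 to 619 CPM. The part of these in the respiratory chain values was not tested.

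In asGM1-negative cells the chain was slightly lower in Flt3L Panc02 than in Panc02 tumours, again without a call. None of the 97 genes passed by edgeR's quasi-likelihood test, where 3.7% of all genes were called in either direction; 0 were higher and 2 lower at an unadjusted p under 0.05, and DESeq2 called 0. The median log2 fold change was -0.14, against 0.0016 over all genes and -0.06 over genes of at least 20 CPM. It lay between -0.23 (without Flt3L Panc02 replicate 1) and -0.04 (without Flt3L Panc02 replicate 2) when 1 library was left out. Of the 97 genes 16 were positive, where 50.1% of all genes and 40.4% of genes with at least 20 CPM were. In 4 genes all Flt3L Panc02 libraries lay below all Panc02 libraries, where 12.9% of all genes did so. Ndufs1 was among them, at 89.4, 102 and 106 CPM in Flt3L Panc02 and 127, 113 and 114 CPM in Panc02 tumours, a log2 fold change of -0.25 ± 0.11 (edgeR adjusted p = 0.219). Ndufb7 had a log2 fold change of -0.31 ± 0.19 and Atp5o of -0.31 ± 0.18 (edgeR adjusted p = 0.412 and 0.361). The number lower at an unadjusted p under 0.05 was 0 to 15 when 1 library was left out, with 15 without Flt3L Panc02 replicate 1. Of 12 plasmacytoid dendritic cell markers 6 rose in the same comparison, with sums of 1697 to 1843 CPM in Flt3L Panc02 and 1023 to 1130 CPM in Panc02 tumours. Of 10 conventional dendritic cell markers 3 rose (116 to 127 against 47.0 to 73.5 CPM), of 5 red blood cell genes 4 fell (0.111 to 0.709 against 3.36 to 12.7 CPM), and of 10 tested tumour epithelial and fibroblast markers 4 fell and 1 rose (92.6 to 173.0 against 173 to 302 CPM). Their part in the respiratory chain values was not tested. The 4 comparisons share groups, so their values are not independent of each other.

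**Figure D5:**
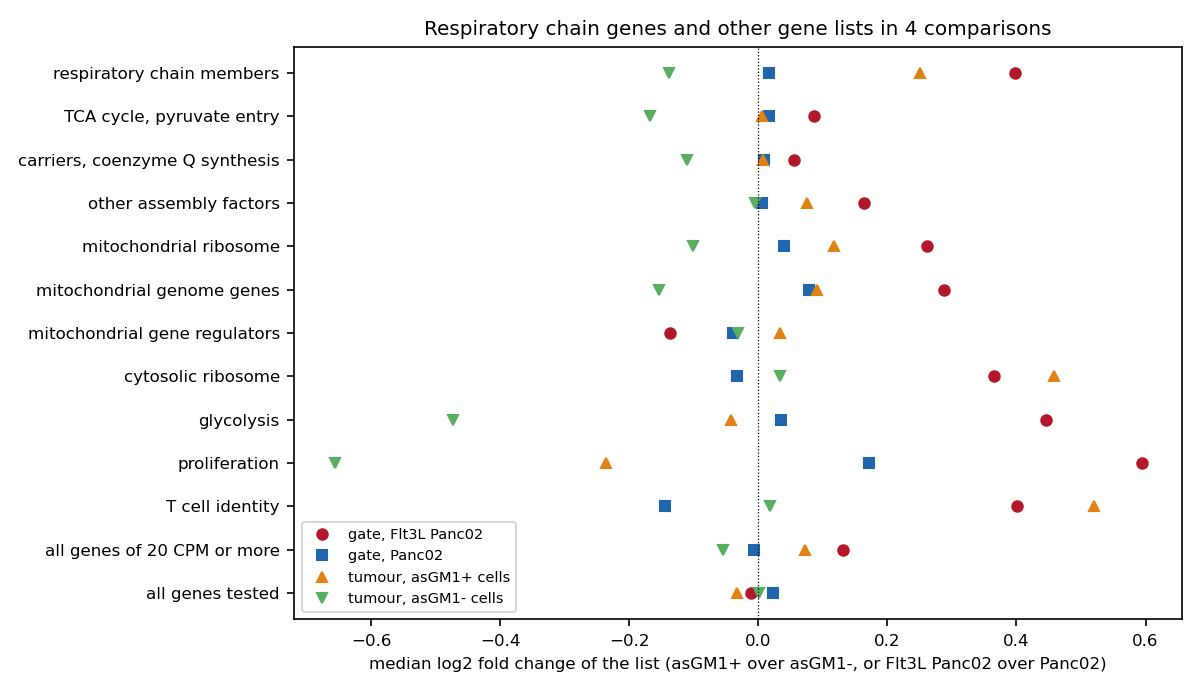
Median log2 fold change of the respiratory chain genes and of other gene lists (rows) in the 4 comparisons: asGM1-positive over asGM1-negative cells in Flt3L Panc02 (red circles) and Panc02 tumours (blue squares), and Flt3L Panc02 over Panc02 tumours in asGM1-positive (orange triangles) and asGM1-negative cells (green triangles). The respiratory chain genes stand at 0.40, 0.02, 0.25 and -0.14, and the cytosolic ribosome at 0.37, -0.03, 0.46 and 0.03.

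Other mitochondrial gene groups had smaller medians than the respiratory chain between the gates in Flt3L Panc02 tumours, in the fit to all 12 libraries. Without asGM1-positive replicate 3 the median of the chain was 0.21, and those of the other groups are not given. Of 29 tested genes of the citric acid cycle and pyruvate entry, 2 rose and 0 fell, with a median log2 fold change of 0.09, among them Mdh2, malate dehydrogenase, by 0.39 ± 0.11 (edgeR adjusted p = 0.0437). Of 17 genes of coenzyme Q synthesis and mobile carriers 2 rose, Coq3, a coenzyme Q methyltransferase, by 0.58 ± 0.15 and Etfb, an electron carrier from fat oxidation, by 0.61 ± 0.16 (edgeR adjusted p = 0.0339 and 0.0345), with a list median of 0.05. Cycs, cytochrome c, was not called, at 173, 143 and 202 CPM in asGM1-positive and 181, 108 and 126 CPM in asGM1-negative cells. Of 44 further assembly factors 1 rose, Coa4 of complex IV, by 0.63 ± 0.16 (edgeR adjusted p = 0.0377), with a median of 0.16. Of 78 mitochondrial ribosomal proteins 1 rose (Mrpl10), with a median of 0.26.

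The 13 protein genes of the mitochondrial genome, which complete complexes I, III, IV and V, had a median log2 fold change of 0.29, with none called by edgeR, 2 at an unadjusted p under 0.05, and overlapping sums of 5427, 5211 and 8598 CPM in asGM1-positive and 6638, 4389.6 and 5152 CPM in asGM1-negative cells. Of 13 uncoupling, carrier and membrane genes 2 rose, the ADP/ATP carrier Slc25a5 by 0.43 ± 0.12 and the uncoupling protein Ucp2 by 0.34 ± 0.10 (edgeR adjusted p = 0.0464 and 0.0495). Ucp2 also rose in asGM1-positive cells of Flt3L Panc02 over those of Panc02 tumours, by 0.84 ± 0.10 (edgeR adjusted p = 0.00360), a comparison in which no respiratory chain gene was called.

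Outside mitochondria, 90 cytosolic ribosomal proteins had a median log2 fold change of 0.37 between the gates in Flt3L Panc02 tumours, with 1 called (Rps27a). Of 21 rows of the glycolysis list 2 rose, Pgk1 by 0.74 ± 0.21 and Pkm by 0.52 ± 0.15, and 1 fell, Ldhb, with a log2 fold change of -1.69 ± 0.32 (edgeR adjusted p = 0.0480, 0.0481 and 0.00915), with a median of 0.45. Of 24 proliferation genes 13 rose and 0 fell, with a median log2 fold change of 0.59, larger than that of the chain. Among them Bub1 rose by 0.78 ± 0.11, Ccnb1 by 0.70 ± 0.10 and Plk1 by 0.71 ± 0.11 (edgeR adjusted p = 0.00164, 0.00243 and 0.00310). The summed level of the 24 genes was 6531, 5205 and 5090.2 CPM in asGM1-positive and 4184, 3825 and 3654 CPM in asGM1-negative cells. Unlike the respiratory chain, it was not highest in replicate 3. In asGM1-negative cells 15 proliferation genes fell and 0 rose in Flt3L Panc02 against Panc02 tumours.

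Markers of other cells differed between the same gates. Of 12 plasmacytoid dendritic cell markers 8 fell and 0 rose in asGM1-positive cells of Flt3L Panc02 tumours, with sums of 814 to 937 CPM in asGM1-positive and 1697 to 1843 CPM in asGM1-negative cells; Bst2, Irf8, Pacsin1 and Runx2, also present in the asGM1-positive libraries, make up much of both sums. Of 10 conventional dendritic cell markers 6 fell, with sums of 21.7 to 31.7 and 116 to 127 CPM. Of 14 macrophage and monocyte markers 1 rose and 1 fell, with sums of 708 to 960.3 and 389.8 to 629.6 CPM. Of 5 red blood cell genes 4 rose, with sums of 13.2 to 31.3 and 0.111 to 0.709 CPM. Of 12 T cell identity genes 2 rose, with sums of 13659.7 to 17452 and 10808 to 12142 CPM. Their median log2 fold change was 0.40, that of the chain to 2 decimals, and 10 of the 12 lay wholly higher in asGM1-positive cells. Of 4 tested B and plasma cell markers 2 fell, with sums over the list of 8.36 to 12.5 and 34.7 to 51.8 CPM, while Ms4a1 and Pax5 of that list had no count in these 6 libraries. Of 7 CD4 and regulatory T cell markers 3 fell and 0 rose, with sums of 686 to 864 and 706 to 912 CPM. Of 7 NK cell markers 2 rose and 1 fell, with sums of 746 to 1029.8 and 557 to 714 CPM. None of 7 tested neutrophil markers and none of 10 tested tumour epithelial and fibroblast markers was called by edgeR, with 2 and 1 at an unadjusted p under 0.05. The part of other cells in the respiratory chain values was not tested.

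Medians were larger for short transcripts than for long ones. The 45 genes with a transcript up to the median length of 861 bases had a median log2 fold change of 0.43 between the gates in Flt3L Panc02 tumours and the 44 longer ones 0.31. Between tumours in asGM1-positive cells they had 0.29 and 0.18. Over 77 genes of complexes I to V, the rank correlation of log2 fold change with length was -0.29 between the gates in Flt3L Panc02 tumours, -0.40 between tumours in asGM1-positive cells and -0.03 between the gates in Panc02 tumours; the genes share libraries, so these describe these libraries only. Its part in the differences was not tested.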

How the data were processed

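The authors deposited 1 table of estimated counts (expected counts) per gene, in whole numbers, for 56980 genes in 12 libraries. For the estimated counts the authors list HISAT2, StringTie and mm39, per the submitters' processing notes; versions, roles, order, annotation and strand handling are not given in the sources used. Small values peaked at multiples of about 2.71 counts (2.67 to 2.75), taken as 1 fragment, so the floor of 3 fragments is 8.13 counts, which covers counting error only. The protocol labels name both a TruSeq mRNA and a SMARTer ultra low input kit.

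Counts were fitted in R 4.3.3 with edgeR 4.0.16 (TMM, filterByExpr by group, quasi-likelihood test on 4 group means over all 12 libraries, prior count 2). A gene counted as called when its p, adjusted over 20411 genes by Benjamini-Hochberg, was under 0.05. Standard errors divide the unshrunken log2 fold change (no prior count) by the root of its F statistic. Sums of CPM over genes carry no test. The fit was tested on simulated counts. Other settings were DESeq2 1.42.0 (size factors, test), no filter, 5 CPM in 3 libraries, the compared libraries alone, counts divided by the fragment step, the replicate block and leaving out libraries.

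Genes named were called members, the 1 or 2 uncalled members of a complex with the largest log2 fold change at 5 CPM or more, and a fixed panel of subunits and regulators. Of other lists up to 3 called genes by p were named. Values of a few single genes are not reported here, while the counts, sums and medians include them. The members and lists were chosen with earlier results of these data known. The cytosolic ribosomal list leaves out Rps6k kinases. Numbered pseudogene names count as members.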

Additional observations from a re-analysis of the deposited data

How the results depend on the processing

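The count of respiratory chain genes called higher in asGM1-positive cells of Flt3L Panc02 tumours was 5. It was 25 by the DESeq2 test, 1 in a fit to the compared libraries alone, 2 without a filter on low counts, 4 with the stricter filter, 6 with DESeq2 size factors, 7 with counts divided by the fragment step, and 1 to 13 when 1 library was left out. In asGM1-positive cells, Flt3L Panc02 against Panc02 tumours, 0 were called, against 3 higher and 1 lower by the DESeq2 test, and 0 to 1 higher when 1 library was left out. The other counts stayed at 0 under every setting run. Of 32 log2 fold changes of single respiratory chain genes that were compared over the settings, 0 changed sign, and those of other named genes were not compared. The cause of these shifts was not tested, except that fewer libraries enter the fits that leave some out.

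With a replicate block the count in Flt3L Panc02 tumours was 6. Same-numbered libraries of the gates correlated at 0.0540, 0.104 and 0.0224 in their deviations from the group means there, and at 0.284, 0.0952 and 0.166 in Panc02 tumours, where each library correlated best with its own number. Not every pair passed 0.1, so the numbers were not taken to pair the libraries.

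The precision is limited by 3 libraries a group. Among genes with at least 5 CPM, the median SD of a respiratory chain gene was 0.289 on the log2 scale in asGM1-positive cells of Flt3L Panc02 tumours, against 0.187 over all such genes. It was 0.228 against 0.204 in asGM1-negative cells of those tumours, 0.0897 against 0.122 in asGM1-positive cells of Panc02 tumours, and 0.198 against 0.143 in asGM1-negative cells of Panc02 tumours.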
